A study of Mus musculus with 15 samples.

Results

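The diets deficient in methionine (0%) and restricted in methionine (25%) were pooled and set against the diet supplemented with methionine (300%), in lung metastases grown from B16-F10.1, a mouse melanoma cell line. Libraries were chosen by their diet label alone, and 12 of the 15 libraries of the series entered: 3 from the deficient diet, 3 from the restricted diet and 6 from the supplemented diet. All hosts were male C57BL/6J mice that received 100000 cells through the tail vein at an age of 8 weeks. The tumours were given 21 days to grow in the lung before 2 weeks on the test diet, and no other agent or allele is named for any group. The design text names the deficient and restricted diets, and the supplemented diet is known from the sample labels. The 3 libraries of the series from the adequate diet entered only where a fit of all 15 libraries is named. Whether the libraries are from different mice is not stated, and p-values therefore cover the spread among these libraries. The pooled comparison asks what separates metastases on low methionine from metastases on excess methionine.

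Methionine must come from the diet, and from it cells make S-adenosylmethionine, the methyl donor of most methylation reactions. S-adenosylmethionine is made by MAT2A in most tissues, and the homocysteine left after methylation is either turned back into methionine or passed to cysteine through transsulfuration. A shortage of an amino acid is sensed by the kinase GCN2 and raises translation of the transcription factor ATF4, whose targets include asparagine synthetase (Asns) and the pseudokinase Trib3. Tumours in the lung also carry host cells, and interferon from such cells induces guanylate-binding proteins, immunity-related GTPases and the peptide-loading machinery of MHC class I.

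Total expected counts were 13714649 to 29994249 per library on the low-methionine diets and 13107649 to 26362670 on the supplemented diet, a difference within the spread (two-sided exact permutation test over 924 splits, p = 0.727; smallest possible p = 0.00216). Melanin and melanosome genes, the defining markers of the line, had summed levels of 19920 to 36881 CPM (read counts scaled to library size) in the low-methionine libraries and 28333 to 35864 CPM in the supplemented libraries. Normal lung differed far more. The summed alveolar type 2 markers, genes of the surfactant-making cells, came to 499 to 9064 CPM on the low-methionine diets and 333 to 2696 CPM on the supplemented diet. Deficient replicate 3 held the highest lung, airway and vessel markers, and supplemented replicate 5 held muscle genes. The 8 tested of 20 muscle list members summed to 1653 CPM there and to at most 67.9 CPM in the other 11 libraries. In bulk tissue, fewer cells of a type and less RNA per cell cannot be told apart. Results that those 2 libraries moved most are also given without them.

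**Figure D1:**
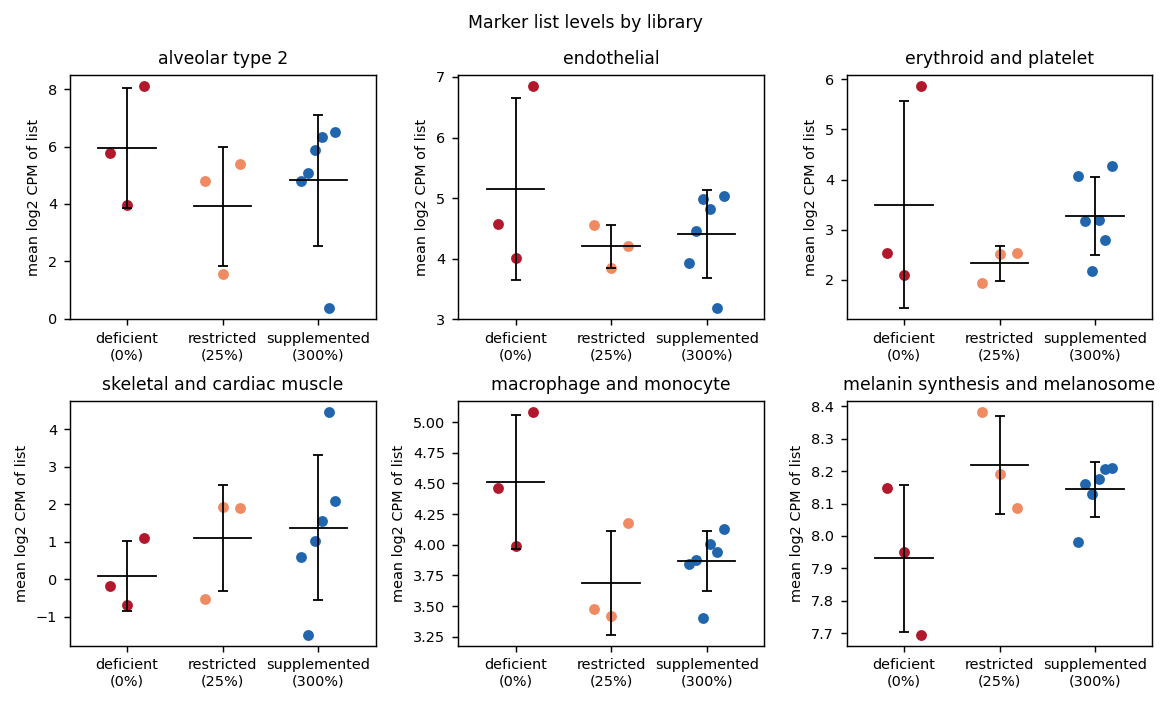
Level of 6 marker lists in each library (points), as the mean log2 CPM of the list's members, with the mean and SD of the deficient (n = 3), restricted (n = 3) and supplemented (n = 6) diets. Deficient replicate 3 stands high in the alveolar, endothelial and blood lists, supplemented replicate 5 stands low in the alveolar list and high in muscle, and the melanosome list varies least.

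No gene passed the test between the low-methionine and the supplemented diets. Of 14422 genes tested with edgeR, 0 (0%) were called at an adjusted p under 0.05, and the smallest adjusted p was 0.999. At an unadjusted p under 0.05, 380 genes (2.63%) were counted, of which 226 (1.57%) were higher and 154 (1.07%) were lower on the low-methionine diets, where 5% of the genes tested would be 721. limma-voom also called 0 (383 at an unadjusted p under 0.05). DESeq2 called 1 gene of 22334 (0.00448%; 575 at an unadjusted p under 0.05). That gene was the ribosomal protein pseudogene Rpl9-ps6, with 0 counts in 10 libraries, 46 in supplemented replicate 3 and 117 in supplemented replicate 5, and its assignment is uncertain because it shares sequence with its parent gene. The median log2 fold change over all genes was 0.02 and 54.9% of genes lay above 0. The median 95% interval reached 0.44 to either side on the log2 scale, and it reached less than 1 for 79.2% of genes. These intervals are not adjusted for the number of genes. Larger differences also went uncalled, such as 1.42 for Ptpn7 (edgeR adjusted p 0.999).

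Among the 10 genes with the smallest p that were higher on low methionine, the lowest p belonged to Ptpn7 (ENSMUSG00000031506), a protein tyrosine phosphatase of leukocytes that acts on MAP kinases. Ptpn7 stood at 8.76, 13.1 and 7.58 CPM in deficient and 5.01, 17.6 and 9.34 CPM in restricted libraries, against 1.92 to 6.43 CPM (median 3.63) in supplemented libraries. Its log2 fold change was 1.42 (SE 0.331, 95% interval 0.71 to 2.13), and the groups overlapped in 1 restricted library. Fndc3c1, a fibronectin type III domain gene, stood at 9.23, 13.2 and 6.59 CPM in deficient and 25.4, 15.6 and 21.1 CPM in restricted libraries, against 3.89 to 9.30 CPM (median 5.50) in supplemented libraries. The log2 fold change of Fndc3c1 was 1.37 (SE 0.340). The restricted libraries held all of the highest Fndc3c1 values, and the deficient libraries overlapped the supplemented ones.

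In 4 of those 10 genes every low-methionine library exceeded every supplemented library, a pattern that 0.118% of all genes showed. The 10 were chosen by p in the same comparison, which favours groups without overlap. Their excess over that share is therefore not separate evidence. Pak4, a p21-activated kinase of the cytoskeleton, stood at 43.7, 43.1 and 50.1 CPM in deficient and 48.6, 42.8 and 40.6 CPM in restricted libraries, against 32.7 to 38.5 CPM (median 35.1) in supplemented libraries, a log2 fold change of 0.34 (SE 0.0882). Cnpy3, a chaperone of Toll-like receptors, had a log2 fold change of 0.37 (SE 0.101), with 69.4 to 94.9 CPM on low methionine and 52.4 to 68.1 CPM on the supplemented diet. Ndufa7, a subunit of respiratory complex I, also had a log2 fold change of 0.37 (SE 0.105), with 73.0 to 92.1 CPM on low methionine and 52.2 to 71.7 CPM on the supplemented diet. Tmem53, a transmembrane protein gene, stood at 3.18 to 3.83 CPM on low methionine and 0.686 to 2.27 CPM on the supplemented diet, a log2 fold change of 1.10 (SE 0.311). The remaining 4 overlapped between the diets. They were Rdh5, a retinol dehydrogenase (log2 fold change 0.86), Icosl, a ligand that costimulates T cells (0.75), Pex6, an ATPase of peroxisome assembly (0.44), and Enc1, an actin-binding protein (0.40).

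The 10 genes with the smallest p that were lower on low methionine were chosen in the same way, with the same limit. Of them, 1 had no overlap between the groups, which 0.0416% of all genes showed in that direction. This was Ddx19a, an RNA helicase, at 28.9, 23.3 and 29.1 CPM in deficient and 29.1, 25.1 and 27.9 CPM in restricted libraries, against 29.4 to 39.5 CPM (median 34.7) in supplemented libraries. This gave a log2 fold change of -0.32 (SE 0.106). Klhl30 had the smallest p of this direction, with 36.1 to 59.4 CPM on low methionine and 57.1 to 91.2 CPM on the supplemented diet (log2 fold change -0.52, SE 0.141). Smad4, the common mediator of TGF-beta signalling, stood at 56.9 to 79.7 CPM on low methionine and 66.1 to 93.8 CPM on the supplemented diet (log2 fold change -0.34, SE 0.117). The iron reductase Steap3 had a log2 fold change of -0.43, the scaffold gene Dlg5 -0.47, the kinase Pak3 -0.92, Zfyve21 -0.48, the cyclophilin Ppig -0.53 and the ubiquitin ligase Rnf128 -0.46. Hspb7, a heat shock protein of muscle, had a log2 fold change of -2.95 with 0.563 to 2.78 CPM on low methionine, but its supplemented range of 1.69 to 64.1 CPM (median 2.50) had its top value in the muscle-rich supplemented replicate 5. Without that library the log2 fold change of Hspb7 was -0.55.

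**Figure D2:**
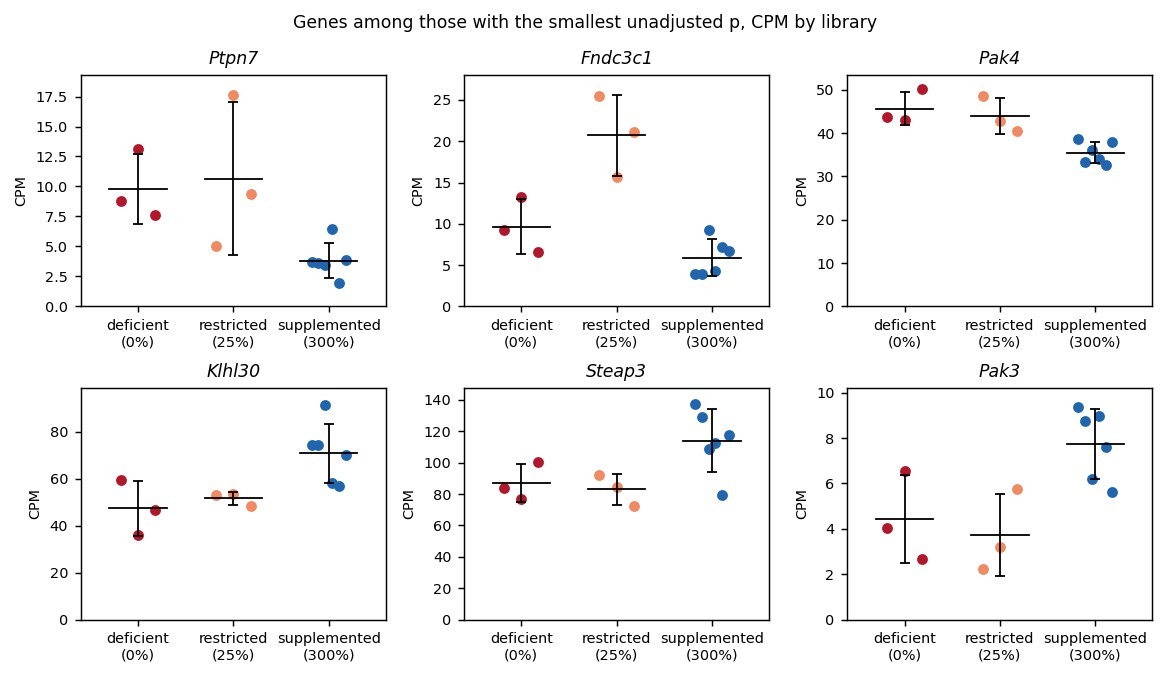
CPM of 3 genes of each direction in each library (points), with the mean and SD of the deficient (n = 3), restricted (n = 3) and supplemented (n = 6) diets. Pak4 alone of the 6 has no overlap between low-methionine and supplemented libraries, and Fndc3c1 stands highest in the restricted libraries.

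Interferon-inducible gene lists had medians above 0 on both low-methionine diets, with overlap between libraries. Many interferon-induced promoters carry the interferon-stimulated response element, at which STAT and IRF factors bind. A core of GAAA, any 2 bases and GAAA was searched on both strands of the 300 bases around each start site in RefSeq (GRCm38.p6), and 3.44% of all 32851 promoters held it. Of the interferon-inducible GTPase list, 10 of 13 tested genes had a promoter in the table and 9 of the 10 held the core (81.8% of their 11 promoters). The share was 45.2% of 31 promoters for the type I interferon response list and 29.4% of 17 promoters for the MHC class I list. A match is a description of letters and not a site of binding. The promoters of Tgtp2 and Igtp, the 2 GTPase genes with the smallest p, are shown 5′ to 3′ on the strand of the gene with the core in capitals. Tgtp2 lies on the minus strand at chr11:49064163-49064462 and Igtp on the plus strand at chr11:58199306-58199605.
Tgtp2: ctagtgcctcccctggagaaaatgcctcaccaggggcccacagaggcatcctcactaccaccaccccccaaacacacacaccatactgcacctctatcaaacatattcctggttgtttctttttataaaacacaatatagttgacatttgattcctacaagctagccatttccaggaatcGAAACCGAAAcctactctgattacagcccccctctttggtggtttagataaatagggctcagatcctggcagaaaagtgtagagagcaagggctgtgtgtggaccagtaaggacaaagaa
Igtp: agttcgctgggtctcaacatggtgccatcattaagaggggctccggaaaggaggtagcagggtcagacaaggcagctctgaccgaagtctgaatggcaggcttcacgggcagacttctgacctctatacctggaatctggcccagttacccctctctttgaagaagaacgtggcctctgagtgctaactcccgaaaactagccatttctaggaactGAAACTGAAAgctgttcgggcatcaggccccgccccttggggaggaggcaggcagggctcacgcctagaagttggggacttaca
The core lies 70 bases before the start of Tgtp2 and 34 bases before the start of Igtp.

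Tgtp2 encodes a T cell-induced GTPase that acts against intracellular parasites. It stood at 59.4, 38.1 and 51.6 CPM in deficient and 61.1, 33.3 and 67.0 CPM in restricted libraries, against 17.1 to 44.5 CPM (median 33.4) in supplemented libraries. Its log2 fold change was 0.62 (SE 0.232), 5 of 6 low-methionine libraries exceeded the supplemented mean, and its value is uncertain because Tgtp1 is a near-identical copy. Igtp, of the immunity-related GTPases, stood at 76.6, 41.8 and 62.6 CPM in deficient and 60.7, 48.5 and 117 CPM in restricted libraries, against 36.5 to 65.3 CPM (median 46.1) in supplemented libraries. The log2 fold change of Igtp was 0.52 (SE 0.227), and the groups overlapped. All 13 tested members of this GTPase list lay above 0, against 54.9% of all genes, with a median log2 fold change of 0.48 against 0.02. At an unadjusted p under 0.05 stood 5 of the 13, all higher, against 1.57% of all genes. All lists were chosen with earlier results of these data known, and members share the same 12 libraries. Counts of members are therefore descriptive.

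Of the type I interferon response list, 37 of 38 members lay above 0, with a median log2 fold change of 0.28. At an unadjusted p under 0.05 were 7, all higher, against 1.57% of all genes. Oasl2, of the oligoadenylate synthetase family, stood at 101, 69.8 and 104 CPM in deficient and 90.7, 83.6 and 125 CPM in restricted libraries, against 54.3 to 106 CPM (median 58.7) in supplemented libraries. For Oasl2 the log2 fold change was 0.50 (SE 0.184), and all 6 low-methionine libraries exceeded the supplemented mean. Ifi44, an interferon-induced gene, stood at 13.3 to 38.3 CPM on low methionine and 9.49 to 22.3 CPM on the supplemented diet (log2 fold change 0.69, SE 0.274). The promoters of Oasl2 and Ifi44 in the table hold no match to the core.

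Of the MHC class I list, 17 of 18 members lay above 0, with a median log2 fold change of 0.32. At an unadjusted p under 0.05 were 5, all higher, against 1.57% of all genes. Tap2, a subunit of the peptide transporter, stood at 54.7, 43.5 and 47.3 CPM in deficient and 45.6, 41.6 and 58.1 CPM in restricted libraries, against 31.5 to 45.8 CPM (median 37.8) in supplemented libraries (log2 fold change 0.32, SE 0.120). H2-M3, which presents formylated peptides, stood at 6.36 to 13.01 CPM on low methionine and 5.18 to 9.60 CPM on the supplemented diet (log2 fold change 0.53, SE 0.206). No member of these 3 lists passed the adjusted test.

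Median log2 fold changes against the supplemented diet were 0.56 on the deficient and 0.59 on the restricted diet for the GTPases. They were 0.18 on the deficient and 0.38 on the restricted diet for the type I interferon response, and 0.37 on the deficient and 0.24 on the restricted diet for MHC class I. Both sets of values share the 6 supplemented libraries. List levels (mean log2 CPM) overlapped between the groups. GTPases stood at 5.27, 4.47 and 5.22 in deficient and 4.72, 4.11 and 5.63 in restricted libraries, against 3.72 to 5.12 in supplemented ones. MHC class I stood at 6.39, 5.93 and 6.55 in deficient and 5.88, 5.85 and 6.62 in restricted libraries, against 5.63 to 6.18. The type I interferon response ranged from 5.72 to 6.45 on low methionine and 5.47 to 6.12 on the supplemented diet. With the lung level of each library as a covariate, a fit that put 4.28% of all genes at an unadjusted p under 0.05, the medians were 0.47, 0.28 and 0.30, in the order GTPases, type I interferon response and MHC class I. Without deficient replicate 3 and supplemented replicate 5 together they were 0.35, 0.27 and 0.19. At an unadjusted p under 0.05 were then 2 of 13, 10 of 38 and 1 of 18 members, where 1265 of 14528 genes were. Without restricted replicate 3, which held the highest Igtp, Oasl2 and Ifi44, the medians were 0.30, 0.18 and 0.21. In that setting 1 member of each list was at an unadjusted p under 0.05, where 343 of 14598 genes were. Interferon gamma itself (Ifng) was at 0 in all 12 libraries, and 14 of 29 T, NK and B cell markers were too low to test. The 15 tested T, NK and B cell markers summed to 10.9 to 75.4 CPM on low methionine and 12.8 to 36.8 CPM on the supplemented diet. Summed macrophage markers were 546 to 3259 CPM on low methionine and 707 to 1275 CPM on the supplemented diet. The lung covariate was the mean level of alveolar type 1 and type 2 markers only. With it, medians were 0.27 for endothelial, 0.20 for macrophage and monocyte and 0.33 for T, NK and B cell markers. They were -0.84 for neutrophil and -0.26 for erythroid and platelet markers. The part of such host cells in the interferon genes was not tested.

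**Figure D3:**
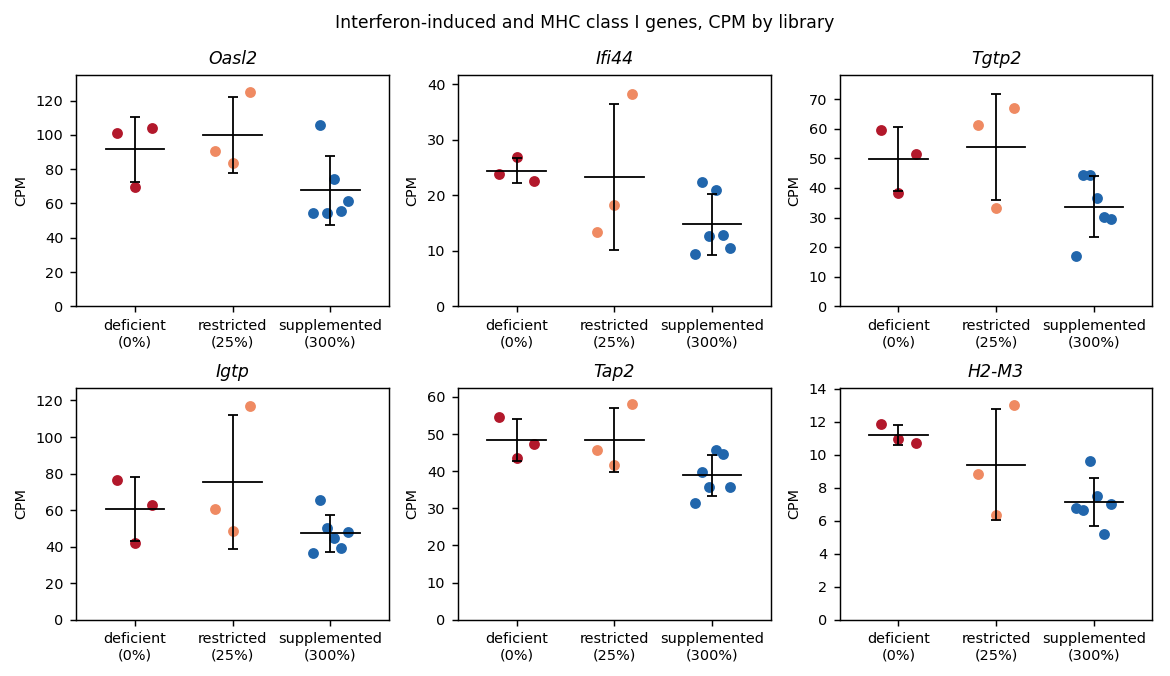
CPM of 6 interferon-induced and MHC class I genes in each library (points), with the mean and SD of the deficient (n = 3), restricted (n = 3) and supplemented (n = 6) diets. The mean of each low-methionine diet lies above the supplemented mean in all 6 genes, and the libraries overlap in all 6.

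Genes of methionine metabolism were close to even in the pooled comparison of all 12 libraries. Of the methionine cycle list, 11 of 13 members were high enough to test, 5 lay above 0, the median log2 fold change was -0.01 and 0 were at an unadjusted p under 0.05. Against supplemented, the median was 0.09 with 8 of 11 above 0 on the deficient diet. On the restricted diet it was -0.18 with 4 of 11. Without deficient replicate 3 and supplemented replicate 5 together, 5 of 10 tested members lay above 0 with a pooled median of 0.09. At an unadjusted p under 0.05 stood 3 of those 10, where 1265 of 14528 genes did. Mat2a, the methionine adenosyltransferase of most tissues, stood at 44.8, 113 and 77.2 CPM in deficient and 115, 101 and 102 CPM in restricted libraries, against 72.3 to 122 CPM (median 104) in supplemented libraries. Its log2 fold change was -0.14 (SE 0.204, 95% interval -0.58 to 0.30), and the lowest value, in deficient replicate 1, lay below all supplemented libraries. Ahcy, which splits S-adenosylhomocysteine, had a log2 fold change of 0.16 with an interval of -0.19 to 0.50. Mtr, the methionine synthase that remakes methionine from homocysteine, had 0.13 with an interval of -0.26 to 0.52. Its reductase Mtrr had -0.01 (interval -0.39 to 0.37). The regulatory subunit Mat2b had 0.20 (interval -0.06 to 0.46) and stood at 19.5 to 23.5 CPM on low methionine and 14.9 to 23.6 CPM on the supplemented diet. Ahcyl1 and Ahcyl2, relatives of Ahcy, had -0.26 (interval -0.55 to 0.04) and -0.04 (interval -0.37 to 0.30). The intervals of these genes all include 0 and lie within 1 of it. Nnmt, which methylates nicotinamide, was less well measured, with a log2 fold change of -0.06 and an interval of -1.09 to 0.98. Mat1a and Bhmt2, genes known from liver, stood at no more than 6.17 CPM in any of the 12 libraries, and their intervals of -1.20 to 2.42 and -2.13 to 1.08 leave the direction unknown.

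The neighbouring pathways gave like values. Transsulfuration and cysteine breakdown had a median log2 fold change of 0.08 with 8 of 10 members above 0, and methionine salvage with polyamine synthesis had 0.02 with 10 of 16. The transsulfuration median was -0.06 with 4 of 10 above 0 without deficient replicate 3, and -0.02 with 5 of 10 with the lung covariate. Smox, the spermine oxidase, was the only member of the salvage list at an unadjusted p under 0.05, with 19.9 to 39.2 CPM on low methionine and 15.3 to 26.9 CPM on the supplemented diet (log2 fold change 0.39, SE 0.179). Serine synthesis and the folate cycle had 9 of 17 members above 0 and a median of 0.03, and glutathione and NRF2 genes had 12 of 23 and 0.01 (7 of 23 and -0.05 without deficient replicate 3).

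The amino acid response lay close to even as a group when all 12 libraries were used. Of the 42 tested ATF4 list members 23 lay above 0, with a median log2 fold change of 0.03, and 1 was at an unadjusted p under 0.05. Without deficient replicate 3 the values were 27 of 42 and 0.09. They were 32 of 42 and 0.12 without supplemented replicate 1, and 16 of 42 and -0.07 without restricted replicate 2. On the deficient diet against supplemented, 19 of 42 lay above 0 with a median of -0.04. Without deficient replicate 3 this was 31 of 42 and 0.17. Asns stood at 138, 239 and 55.8 CPM in deficient and 102, 149 and 117 CPM in restricted libraries, against 73.5 to 191 CPM (median 105) in supplemented libraries. Its log2 fold change was 0.11 (SE 0.303, 95% interval -0.54 to 0.77), and the deficient libraries held both the highest and the lowest value. Trib3 stood at 65.5, 64.0 and 18.99 CPM in deficient and 47.3, 65.4 and 40.8 CPM in restricted libraries, against 19.6 to 84.7 CPM (median 37.6) in supplemented libraries (log2 fold change 0.20, SE 0.343). Deficient replicate 3 was the lowest of the low-methionine libraries in both genes. Nupr1, a stress-induced chromatin protein, was the member with an unadjusted p under 0.05, at 18.7 to 25.0 CPM on low methionine and 12.7 to 19.9 CPM on the supplemented diet (log2 fold change 0.33, SE 0.142). The unfolded protein response list had 15 of 20 members above 0 and a median of 0.06.

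**Figure D4:**
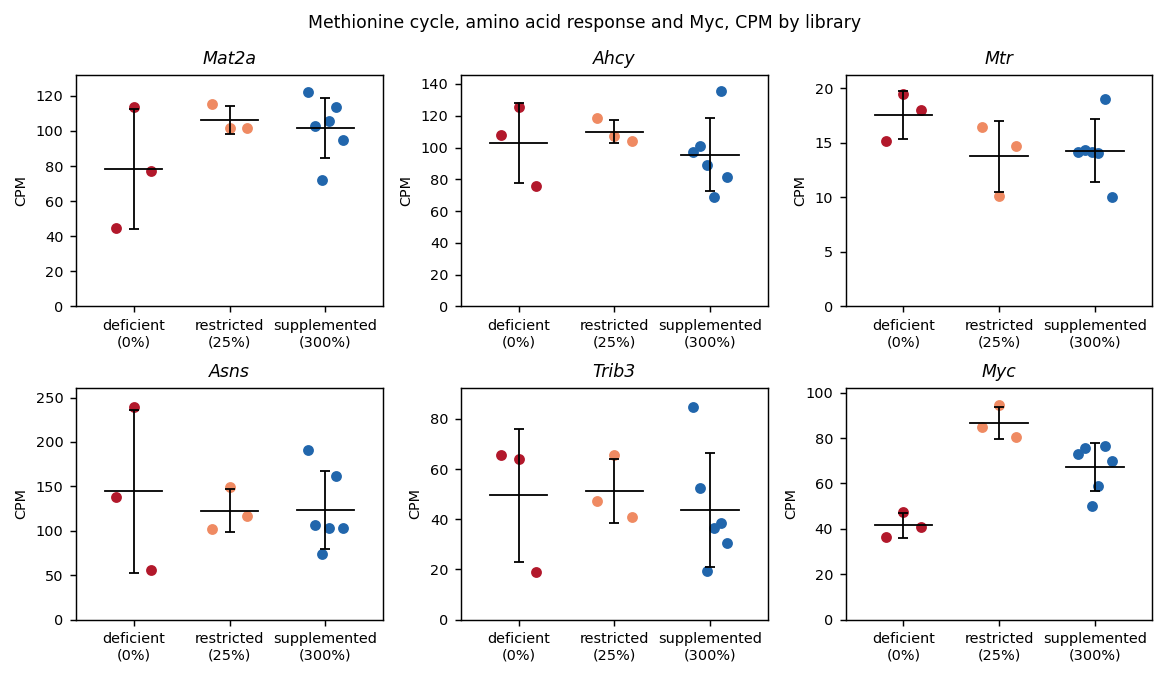
CPM of 3 methionine cycle genes, 2 ATF4 targets and Myc in each library (points), with the mean and SD of the deficient (n = 3), restricted (n = 3) and supplemented (n = 6) diets. The diets overlap in the first 5 genes, and Myc is low in all deficient and high in all restricted libraries.

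For some gene groups the near-even pooled value joins a lower deficient and a higher restricted diet. Myc, a transcription factor of growth, stood at 36.6, 47.4 and 40.9 CPM in deficient and 84.9, 94.3 and 80.4 CPM in restricted libraries, against 50.2 to 76.6 CPM (median 71.3) in supplemented libraries. All deficient values lay below and all restricted values above the supplemented range, and the pooled log2 fold change was -0.07 (SE 0.233, 95% interval -0.57 to 0.43). Between deficient and restricted libraries the log2 fold change of Myc was -1.07 (SE 0.175), with an adjusted p of 0.270 in edgeR's fit of all 15 libraries. In that contrast 0 of 16001 genes (0%) were called and 1191 (7.44%) were at an unadjusted p under 0.05, while DESeq2 called 10. Of the 14422 genes of the pooled comparison, 7.54% were at an unadjusted p under 0.05 between deficient and restricted libraries, and 2.32% without deficient replicate 3.

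G2/M and mitosis genes were even in the pooled comparison, where 16 of 40 members lay above 0 around a median log2 fold change of -0.02. Their median was -0.35 on the deficient and 0.24 on the restricted diet, each against the same 6 supplemented libraries. Between deficient and restricted libraries the median was -0.55, with 0 of 40 members above 0 against 51% of all genes, and 22 of 40 were at an unadjusted p under 0.05 against 7.54%. The mean log2 CPM of the list was 5.32, 5.37 and 4.71 in deficient and 5.61, 5.78 and 5.73 in restricted libraries, so the diets did not overlap and deficient replicate 3 was lowest. Without that library the deficient median against supplemented was -0.15. Between deficient and restricted libraries the median was then -0.37, with 0 of 40 above 0 and 6 of 40 at an unadjusted p under 0.05. The pooled median without it was 0.10, with 30 of 40 members above 0. Mki67, a marker of dividing cells, was even, at 165 to 233 CPM on low methionine and 171 to 247 CPM on the supplemented diet (pooled log2 fold change -0.05, SE 0.116).

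Cholesterol synthesis and uptake genes had 15 of 24 members above 0 and a pooled median log2 fold change of 0.03, from -0.32 on the deficient and 0.26 on the restricted diet. Between those diets 3 of 24 lay above 0, the median was -0.62, and 13 of 24 were at an unadjusted p under 0.05. Without deficient replicate 3 that median was -0.52, with 7 of 24 at an unadjusted p under 0.05. The pooled median was 0.12 without deficient replicate 3 and -0.11 without restricted replicate 1. Fatty acid synthesis genes had 11 of 14 members above 0 and a pooled median of 0.09, from -0.09 on the deficient and 0.13 on the restricted diet. Of this list, Acss2, which makes acetyl-CoA from acetate, stood at 17.8, 16.7 and 17.1 CPM in deficient and 18.3, 19.2 and 15.8 CPM in restricted libraries. Supplemented libraries held 10.8 to 15.3 CPM (median 13.8). Every low-methionine library exceeded every supplemented library for Acss2 (log2 fold change 0.39, SE 0.127), the only such gene of the 14 tested. Over all genes 0.118% showed that pattern, and Acss2 was chosen by its p in the same comparison.

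Hypoxia and glycolysis genes had 32 of 36 members above 0 and a pooled median log2 fold change of 0.12, from -0.12 on the deficient and 0.33 on the restricted diet. The mean log2 CPM of the list was 7.22, 7.38 and 6.28 in deficient libraries, and without deficient replicate 3 the deficient median was 0.10. The pooled values were 34 of 36 and 0.23 without that library, 23 of 36 and 0.0496 without restricted replicate 1, and 22 of 36 and 0.0431 without restricted replicate 2. P4ha1, a collagen prolyl hydroxylase subunit, stood at 160, 153 and 79.7 CPM in deficient and 155, 158 and 117 CPM in restricted libraries, against 68.9 to 129 CPM (median 99.6) in supplemented libraries (log2 fold change 0.43, SE 0.192). Car12, a carbonic anhydrase, had a log2 fold change of 1.35 (SE 0.523), with 4.32 to 31.1 CPM on low methionine and 1.304 to 7.07 CPM on the supplemented diet. Restricted replicate 3 held the 31.1 CPM, and the other 5 low-methionine libraries stood at no more than 7.81 CPM. Without restricted replicate 3 the log2 fold change of Car12 was 0.61.

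**Figure D5:**
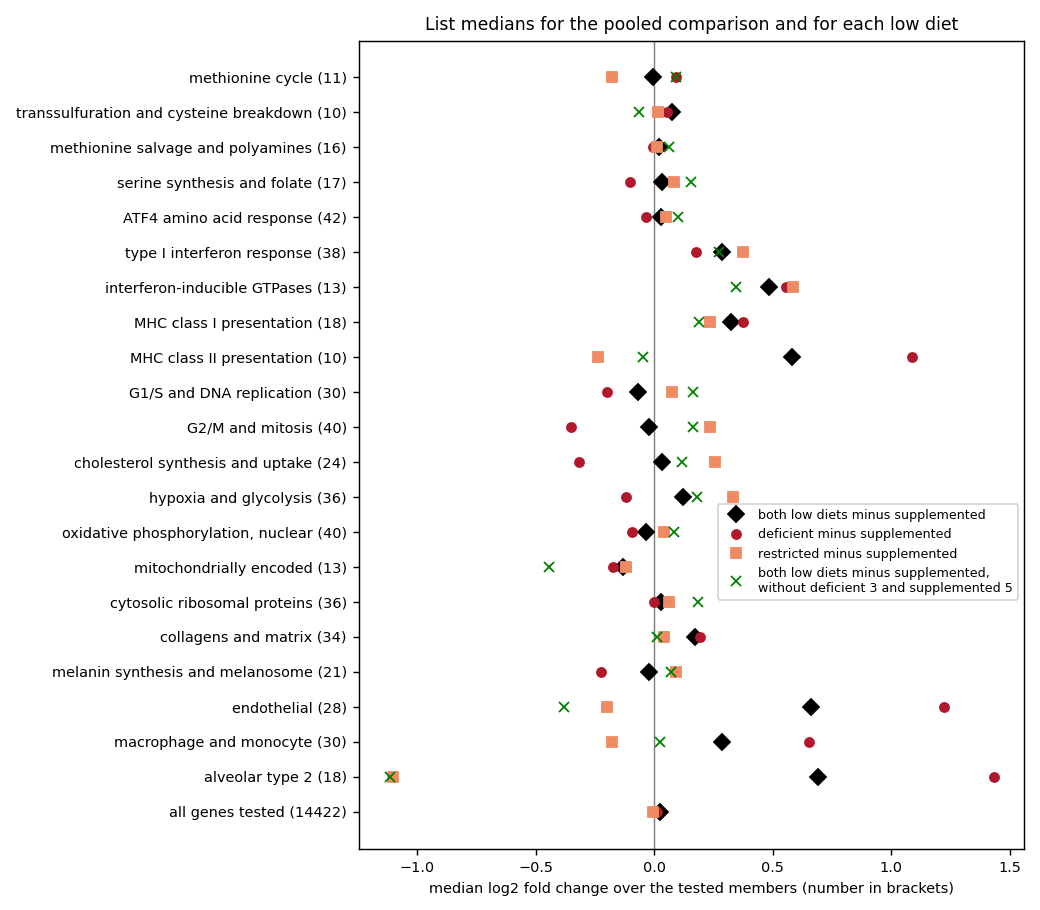
Median log2 fold change over the tested members of each gene list, for both low-methionine diets pooled, for the deficient and the restricted diet each minus supplemented, and for the pooled comparison without deficient replicate 3 and supplemented replicate 5. The interferon lists lie above 0 in all of these, while the cell cycle, cholesterol, alveolar and endothelial lists take opposite sides on the deficient and the restricted diet when all libraries are used.

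Alveolar, endothelial, and erythroid and platelet lists stood higher on the pooled low-methionine diets with deficient replicate 3 and lower without it. Alveolar type 2 markers had a median log2 fold change of 0.69 with 17 of 18 members above 0, with 0 at an unadjusted p under 0.05. The surfactant protein C gene Sftpc stood at 327, 38.3 and 2266 CPM in deficient and 87.8, 2.38 and 185 CPM in restricted libraries, against 0.192 to 650 CPM (median 240) in supplemented libraries (log2 fold change 0.78, SE 1.28). Without deficient replicate 3 the alveolar type 2 median was -0.87 with 1 of 18 above 0. Endothelial markers had 28 of 28 above 0 and a median of 0.66, and 4 of 28 and -0.23 without that library. Kdr, a VEGF receptor of vessels, stood at 28.6, 17.7 and 210 CPM in deficient and 32.0, 31.5 and 27.6 CPM in restricted libraries, against 8.43 to 43.2 CPM (median 33.1) in supplemented libraries. Erythroid and platelet markers had 9 of 10 above 0 with a median of 0.39, and 1 of 10 with a median of -1.25 without deficient replicate 3. MHC class II genes had 10 of 10 above 0 with a median of 0.58, and 7 of 10 with 0.10 without it. Macrophage and monocyte markers had 29 of 30 above 0 with a median of 0.29, and 15 of 30 with 0.02 without it. Airway epithelial markers had 12 of 12 above 0 with a median of 1.79, and 7 of 12 with 0.20 without it. T, NK and B cell markers had 13 of 15 above 0 with a median of 0.51, and 8 of 15 with 0.16 without it. Neutrophil markers lay the other way, with 2 of 8 above 0 and a median of -0.32. Their median was -1.17 with 1 of 8 above 0 without deficient replicate 3, and 0.10 with 5 of 8 without supplemented replicate 2.

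The muscle list was lower on low methionine through supplemented replicate 5. Of its 8 tested members, 3 were lower at an unadjusted p under 0.05 and the median log2 fold change was -1.31, against -0.00 and 4 of 8 above 0 without supplemented replicate 5. Ttn, the giant spring protein of the sarcomere, stood at 2.98 to 27.7 CPM on low methionine and 3.89 to 566 CPM (median 16.5) on the supplemented diet.

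Without deficient replicate 3 and supplemented replicate 5 together, 0 genes were called and the smallest edgeR adjusted p was 0.241. Of 14528 genes, 1265 were at an unadjusted p under 0.05, 538 higher and 727 lower on low methionine. With all 12 libraries this was 380 of 14422. The median log2 fold change over the genes of the main comparison was 0.00056. Those 2 libraries were left out because they stood apart in these same data. In that comparison of 5 libraries with 5, mitochondrially encoded genes had 0 of 13 above 0 with a median log2 fold change of -0.44, where all 12 libraries gave 3 of 13 and -0.13. Cytosolic ribosomal protein genes had 35 of 36 above 0 with a median of 0.19, where all 12 gave 21 of 36 and 0.03. G1/S and DNA replication genes had 28 of 30 above 0 with a median of 0.16, where all 12 gave 8 of 30 and -0.07. Glucocorticoid-induced genes had 3 of 16 above 0 with a median of -0.28, where all 12 gave 9 of 16 and 0.20. Alveolar type 2 markers had 1 of 18 above 0 with a median of -1.12, where all 12 gave 17 of 18 and 0.69. Endothelial markers had 3 of 28 and -0.38, where all 12 gave 28 of 28 and 0.66. Macrophage and monocyte markers stood near even, at 16 of 30 and 0.03. The part of host tissue content in the other list values was not tested. Fkbp5, a glucocorticoid-induced chaperone partner, stood at 39.4, 44.6 and 30.0 CPM in deficient and 42.8, 41.7 and 41.2 CPM in restricted libraries, against 36.0 to 85.9 CPM (median 51.6) in supplemented libraries. Its log2 fold change over all 12 libraries was -0.51 (SE 0.217), and no low-methionine library exceeded the supplemented mean. Mt1, a metallothionein gene of the same list, went the other way over all 12 libraries, with 0.37 (SE 0.196). For Mt1, 5 low-methionine libraries exceeded the supplemented mean.

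The pigment programme of the tumour cells stood close to even in the pooled comparison. Melanin synthesis and melanosome genes had a median log2 fold change of -0.02, with 6 of 21 members above 0, against 0.07 with 13 of 21 above 0 without deficient replicate 3. Against supplemented, the median was -0.22 with 3 of 21 above 0 on the deficient diet. On the restricted diet it was 0.09 with 15 of 21. Without deficient replicate 3 the deficient values were -0.10 and 9 of 21. Tyrosinase (Tyr), the first enzyme of melanin synthesis, stood at 686, 573 and 379 CPM in deficient and 724, 585 and 588 CPM in restricted libraries, against 519 to 640 CPM (median 606) in supplemented libraries. The log2 fold change of Tyr was -0.02 (SE 0.139, 95% interval -0.32 to 0.28). Mfsd12, a cysteine transporter of melanosomes, was the list member with an unadjusted p under 0.05, at 45.6, 37.6 and 47.2 CPM in deficient and 46.6, 45.9 and 42.2 CPM in restricted libraries, against 32.2 to 42.9 CPM (median 36.3) in supplemented libraries (log2 fold change 0.25, SE 0.0950). All 6 low-methionine libraries exceeded the supplemented mean for Mfsd12, and the groups overlapped. Ddr2, a collagen receptor, stood at 102 to 142 CPM on low methionine and 88.9 to 126 CPM on the supplemented diet (log2 fold change 0.18, SE 0.112).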

How the data were processed

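Each library of total RNA had been depleted of ribosomal RNA and prepared with a kit that marks strand, per the labels' protocols. Expected counts per gene, as deposited, are estimates the authors made with RSEM 1.30 and Bowtie2 2.2.9 on build NCBIM37, per the submitters' processing notes, which also name edgeR. The strand setting and annotation release were not given in the sources used here, so overlapping genes cannot be told apart and near-identical copies are uncertain. The 37620 gene IDs were matched to symbols for 32897, and 48 tested IDs held the same counts as another ID.

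Expected counts were rounded, filtered with filterByExpr and scaled by TMM. The 6 low-methionine and 6 supplemented libraries were compared with the quasi-likelihood test of edgeR 4.0.16 (R 4.3.3), with Benjamini-Hochberg adjustment at 0.05 over 14422 genes. Levels in list means use a prior count of 2. The biological coefficient of variation was 0.431. Deficient and restricted libraries were compared, and each set against supplemented, in a fit of all 15 libraries with a mean per diet. P-values with no other name are unadjusted and from edgeR. limma 3.58.1, DESeq2 1.42.0, other scalings, no filter, a lung covariate and leaving out libraries were alternatives. Values of each diet without deficient replicate 3 were added after seeing the data. The labels number no replicates, so libraries were numbered within a diet in accession order. No pair of libraries within a diet was a repeat (chi-square per degree of freedom 27.4 to 243 in 21 pairs).

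The comparison and the 37 gene lists (796 of 802 entries matched, 732 tested) were chosen with earlier results of these data known. Named genes were the 10 with the smallest p in each direction at a mean log2 CPM of at least 1, the 2 with the smallest p of each list described in detail, the methionine cycle, and Asns, Trib3, Mat2a, Myc, Tyr, Mki67, Sftpc and Ddr2. Some genes that this rule takes are not reported here.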

Additional observations from a re-analysis of the deposited data

Results flagged for a closer look

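In 31 of 216 groups of 6 libraries, formed by the genes and list levels examined, the highest or lowest library stood apart from the other 5 by Dixon's criterion, which chance meets in about 1 in 20 groups. Of these, 14 were deficient replicate 3, 9 were supplemented replicate 5 and 8 were other libraries. Values are log2 CPM, or for lists the mean log2 CPM of members.

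Deficient replicate 3 stood apart from the other low-methionine libraries with 5.994 for Enc1, 1.975 for Tmem53, 4.911 for Fkbp5, 5.758 for Robo4, 7.714 for Kdr, 6.247 for Ahcy, 6.870 for Ahcyl2 and 8.568 for Tyr. Its list levels stood apart at 6.856 for endothelial, 5.873 for erythroid and platelet, 5.499 for glucocorticoid-induced, 4.354 for serine and folate, 5.997 for nuclear oxidative phosphorylation and 5.038 for G1/S genes.

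Supplemented replicate 5 stood apart from the other supplemented libraries with 6.004 for Hspb7, 7.291 for Ckm, -3.243 for Mat1a and -1.750 for Sftpc. Its list levels stood apart at 0.361 for alveolar type 2, 1.109 for alveolar type 1, 6.422 for mitochondrially encoded, 8.207 for cytosolic ribosomal and 3.460 for circadian clock genes.

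The remaining libraries were deficient replicate 2 with 2.062 for Rdh5, restricted replicate 3 with 4.965 for Car12, supplemented replicate 6 with 6.049 for Smad4 and supplemented replicate 1 with 0.7795 for Ly86. Among list levels they were supplemented replicate 1 with 5.625 for collagens and 7.981 for melanin genes, supplemented replicate 2 with 5.345 for cholesterol genes and supplemented replicate 3 with 4.717 for glutathione genes.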

How the results depend on the processing

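The count of genes called between low-methionine and supplemented diets was 0 in edgeR under each alternative run and 1 with DESeq2. Between deficient and restricted diets it was 0 in edgeR and 10 with DESeq2. Leaving out 1 library at a time gave 0 to 0 calls in both comparisons, and 303 to 608 genes at an unadjusted p under 0.05 in the pooled one. That number was 1285 with no filter on low counts and 617 (4.28%) with the lung covariate. No paired analysis was possible because the labels pair no libraries, and the replicate numbers used here only name libraries in accession order.

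Of 1419 combinations of 71 genes and an alternative, 36 turned the sign, in 15 genes, and 0 brought a call. Without deficient replicate 3 and supplemented replicate 5 together, log2 fold changes turned to -0.006421 for H2-DMa, 1.60 for Ckm, -0.31 for Kdr, 0.20 for Nnmt, -0.61 for Mat1a, 0.0618 for Myc, 0.0704 for Tyr and -1.39 for Sftpc. With limma-voom they turned to 0.39 for Ckm and 0.0754 for Bhmt2. With the lung covariate they turned to 0.0266 for Ckm and -0.0714 for Sftpc. The cause of these turns was not tested.

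Leaving out 1 library gave ranges that crossed 0 for Ttn (-2.95 to 0.13), Ckm (-3.21 to 1.44), Kdr (-0.11 to 1.15), Mat2a (-0.22 to 0.000618), Ahcyl2 (-0.16 to 0.0290), Mtrr (-0.10 to 0.10), Nnmt (-0.22 to 0.34), Mat1a (-0.35 to 1.00), Bhmt2 (-0.77 to 0.19), Asns (-0.13 to 0.29), Myc (-0.21 to 0.0488), Tyr (-0.0852 to 0.0815), Mki67 (-0.11 to 0.0101) and Sftpc (-1.13 to 1.22). With 6 libraries a side, the median unadjusted interval reached 0.44 to either side, and larger differences than that also passed no adjusted test in edgeR.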

Other observations

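Across all 14422 genes, every low-methionine library lay above every supplemented library for 17 (0.118%) and below for 6 (0.0416%). Over all 924 splits of 12 libraries, random labels would separate a gene fully in either direction with a share of 0.00216. Counts of this size are therefore not evidence of a difference between the diets. The genes below were chosen after their values were seen, and none passed the adjusted test. Relb, a subunit of the alternative NF-kappaB pathway, stood at 18.995 to 26.6 CPM on low methionine and 9.39 to 18.8 CPM on the supplemented diet (log2 fold change 0.57, SE 0.163). Tomm34, a chaperone of mitochondrial import, had a log2 fold change of 0.34 (SE 0.124), and B3gat3, a glycosaminoglycan linker enzyme, 0.32 (SE 0.0957).

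In the other direction, Cdh2, the N-cadherin of cell adhesion, stood at 24.6 to 43.1 CPM on low methionine and 44.2 to 50.5 CPM on the supplemented diet (log2 fold change -0.29, SE 0.124). Preb, a factor of vesicle export from the endoplasmic reticulum, stood at 45.2 to 52.2 CPM on low methionine and 52.8 to 73.8 CPM on the supplemented diet (log2 fold change -0.27, SE 0.0971). Cd59a, an inhibitor of complement attack, stood at 9.38 to 12.6 CPM on low methionine and 12.7 to 23.2 CPM on the supplemented diet (log2 fold change -0.44, SE 0.173).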
